A study of Mus musculus with 30 samples.

Results

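This experiment asks whether the change in gene expression that haematopoietic stem cells (HSCs) undergo between 2 months and 1 year of age is the same in mice without the interleukin-1 receptor as in wild-type mice. The quantity described is a difference of age changes: the change to 1 year in mice labelled IL1R1 KO (KO below), minus the change to 1 year in Wild-type mice (WT below). A negative value means that a gene gained less, or lost more, in KO than in WT HSCs. It rests on 16 of the study's 30 bone marrow HSC libraries, made from sorted cells by Smart-seq2, a full-length RNA-seq method for small amounts of RNA. They are 3 KO and 4 WT libraries at 2 months, and 4 KO and 5 WT libraries at 1 year. The 5 KO and 4 WT libraries at 2 years and the 5 libraries of germ-free mice do not enter the difference and are given beside it where they help. The series' design text speaks of 30 mice for the 30 libraries; the labels give no strain, sex or receptor allele and name no agent. Of 35727 genes in the deposited table, 16958 reached 10 normalized counts in 3 libraries and were tested.

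Interleukin-1 is an inflammatory cytokine. It binds IL1R1, which recruits MyD88 and the IRAK kinases and leads to nuclear NF-kB, a family of transcription factors that includes the subunit c-Rel, and to AP-1 factors such as Fos and Jun. In HSCs the pathway is known for pushing cells towards myeloid output. HSCs of ageing mice accumulate in number, lean towards platelets and myeloid cells, and gain transcripts such as Selp, Clu, Nupr1 and Aldh1a1.

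Estimated depth was 20.0 to 56.3 M (mega) reads in the 16 libraries, and it was highest in the 1-year WT libraries (32.6 to 56.3 M). All 10 HSC markers were present in each of the 16 libraries, for example Procr at 3321 to 7033 and Slamf1 at 2008 to 5249 normalized counts. Il1r1 itself did not separate the genotypes: it had 232 to 403 normalized counts in KO and 179.9 to 282 in WT at 1 year, and 186 to 262 in KO and 137 to 256 in WT at 2 months. Its age changes differed by -0.12 ± 0.40 on the log2 scale (SE, limma adjusted p = 0.948), so the genotype of the libraries rests on their labels, and since the allele is not given, whole-gene counts may not test it. Replicate 1 of KO at 1 year carries an age field of 2 months against a title of 1 year. It was kept at 1 year, and its mean log2 level over 30 ageing genes (11.40) lay with the other 1-year KO libraries (11.32 to 11.39) and above the 2-month KO libraries (10.06 to 10.53). Those genes were chosen knowing that they rise with age here. Over cell cycle genes its mean (11.16) lay between the other 1-year KO libraries (10.49 to 10.89) and the 2-month KO libraries (11.20 to 11.76). Mpo, an enzyme of myeloid granules, exceeded 10000 normalized counts in KO replicates 1 and 3 and WT replicates 2 and 4 at 2 months, and in KO replicate 2 at 1 year. In such bulk libraries, fewer cells of a type and less RNA per cell cannot be told apart.

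The age change passed the test of a difference between the genotypes for 6 genes (limma on log2(normalized count + 1), adjusted p under 0.05), which is 0.0354% of the 16958 genes. Of these, 5 gained less or lost more in KO HSCs (Clca3a1, Slc24a5, Rsrp1, Gm14391 and Wif1), and 1, Rel, fell in WT HSCs while its change in KO HSCs did not pass the test. Wif1 passed the filter on low values only through the 2-month KO libraries, where it is high, so its call is a description and supports nothing. Within each genotype, 340 genes changed between the ages in KO HSCs (2.00%) and 1818 in WT HSCs (10.7%), a comparison of counts from unequal numbers of libraries. At an unadjusted p under 0.05, 1719 genes differed in age change (10.1%), 826 of them higher in KO (4.87%) and 893 lower (5.27%). The median difference over all genes was -0.018. With the mean level of immediate early genes as a covariate, Clca3a1 alone was called, as it was without KO replicate 2 or without WT replicate 3 at 1 year. Leaving out KO replicate 4 at 1 year gave 31 called genes. With KO replicate 1 of 1 year moved to 2 months, 5 genes were called, and of the 6 these held Clca3a1 and Slc24a5. In a fit on the 16 libraries alone 6 genes were called, and of the 6 above these held Clca3a1, Slc24a5 and Gm14391.

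Clca3a1 (ENSMUSG00000056025, chr3:144729677-144760977, minus strand) encodes a regulator of calcium-activated chloride channels and is a known transcript of aged HSCs. Its normalized counts in KO HSCs were 1560.4, 1099.6 and 1729.9 at 2 months, 3464, 3427, 3298 and 3347 at 1 year, and 5466 to 6257 at 2 years. In WT HSCs they were 1181, 1001, 822 and 1375 at 2 months, 6396, 6157, 5874, 6058 and 7223 at 1 year, and 6009 to 7434 at 2 years. The genotypes overlapped at 2 months, every KO library lay below every WT library at 1 year, and they overlapped again at 2 years. Clca3a1 rose by 1.23 ± 0.14 on the log2 scale in KO HSCs and by 2.56 ± 0.12 in WT HSCs (SE, adjusted p = 2.49e-06 and 8.01e-15), a difference of -1.32 ± 0.18 (adjusted p = 0.000888). At 2 years KO and WT differed by -0.22 (adjusted p = 0.498). The gene lies in a cluster of similar genes, with which it may share reads.

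Slc24a5 (ENSMUSG00000035183, chr2:125068124-125088677, plus strand) encodes a sodium, potassium and calcium exchanger known from pigment cell melanosomes. It had 2366, 1901, 2755 and 2445 normalized counts in KO HSCs at 1 year and 2047, 2104 and 1822 at 2 months, against 2544, 2834, 3071, 2798 and 2956 in WT HSCs at 1 year and 1308, 1202, 960.5 and 1033 at 2 months. At 2 months every KO library was above every WT library, and at 1 year the genotypes overlapped. It rose by 1.34 ± 0.13 on the log2 scale in WT HSCs (adjusted p = 1.36e-08), and the change in KO HSCs was 0.24 (adjusted p = 0.484). The age changes differed by -1.10 ± 0.19 (adjusted p = 0.0181), and at 2 months KO was higher than WT by 0.83 (adjusted p = 0.00224). KO and WT differed for 69 genes at 2 months (0.407% of those tested), for 221 at 1 year (1.30%) and for 241 at 2 years (1.42%).

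Rel (ENSMUSG00000020275, chr11:23736847-23770970, minus strand) encodes c-Rel, an activating subunit of NF-kB. It had 869.5, 823, 792 and 659 normalized counts in KO HSCs at 1 year and 683, 546 and 705 at 2 months, against 599, 524, 353, 599 and 395 in WT HSCs at 1 year and 1305, 912, 1608 and 1086 at 2 months. The genotypes did not overlap at either age, with KO below WT at 2 months and above it at 1 year. Rel fell by 1.31 on the log2 scale in WT HSCs (adjusted p = 1.46e-05), while the change in KO HSCs was 0.29 (adjusted p = 0.585). The age changes differed by 1.60 ± 0.28 (SE, adjusted p = 0.0181). KO minus WT was -0.91 at 2 months (adjusted p = 0.0478), 0.70 at 1 year (0.0555) and 0.20 at 2 years (0.772).

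Rsrp1 (ENSMUSG00000037266, chr4:134923592-134927671, plus strand) encodes an arginine and serine rich protein. It had 15979, 19030, 17348 and 23640 normalized counts in KO HSCs at 1 year and 30199, 25451 and 34366 at 2 months, against 23679, 26087, 30909, 26249 and 27761 in WT HSCs at 1 year and 25010, 23113, 22044 and 20964 at 2 months. Every KO library was above every WT library at 2 months, and every KO library was below every WT library at 1 year. Rsrp1 fell by 0.66 on the log2 scale in KO HSCs (adjusted p = 0.00225), and the change in WT HSCs was 0.24 (adjusted p = 0.158), a difference of -0.90 ± 0.16 (adjusted p = 0.0181). At 2 years it had 12786 to 15659 in KO and 22900 to 27855 in WT, a called difference of -0.84 (adjusted p = 1.46e-05).

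The other two called genes were named after their values were seen, since the naming rule leaves out predicted genes and means under 50. Gm14391 (ENSMUSG00000078903, chr2:175191065-175206917, minus strand) is a predicted protein-coding gene. It had 229, 200.4, 321 and 429 normalized counts in KO HSCs at 1 year and 442, 538 and 424 at 2 months, against 697, 573, 684, 734 and 609.5 in WT HSCs at 1 year and 384, 229, 275 and 239 at 2 months. The KO libraries were all above the WT libraries at 2 months and all below them at 1 year. It rose by 1.25 on the log2 scale in WT HSCs (adjusted p = 0.000622) and changed by -0.72 in KO HSCs (adjusted p = 0.179), a difference of -1.97 ± 0.36 (adjusted p = 0.0215). Wif1 (ENSMUSG00000020218, chr10:121033960-121100650, plus strand), a secreted inhibitor of Wnt signalling, was listed at 0 in all 4 KO libraries at 1 year and at 47.6, 11.1 and 39.9 at 2 months, against 0 in every 1-year WT library except replicate 3 (9.08) and 0 in all 4 WT libraries at 2 months. Its fitted difference (adjusted p = 0.0404) rests on low values in 3 KO libraries and 1 WT library, depends on the pseudocount and is no measure of a fold.

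**Figure D1:**
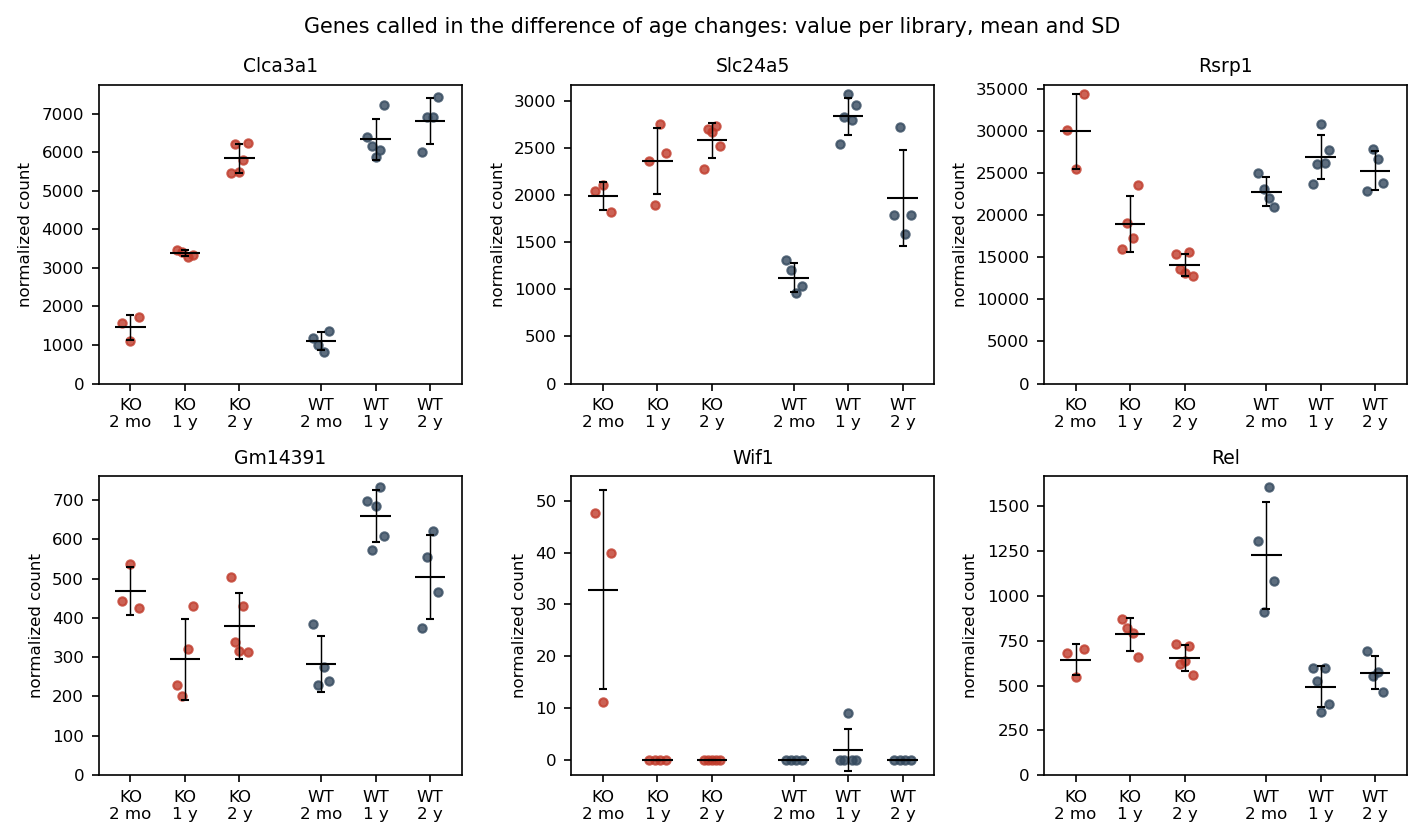
Normalized counts (vertical axes, linear) of the 6 genes whose age change differed between genotypes, for KO and then WT HSCs at 2 months, 1 year and 2 years. Points are libraries and bars the mean ± SD; for Clca3a1 the 1-year KO libraries (3298 to 3464) all lie below the 1-year WT libraries (5874 to 7223).

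The promoters of Rel, Clca3a1 and Slc24a5 are shown. Rel is the 1 called gene of the NF-kB pathway, and the other 2 are among the called genes whose rise with age was called in WT HSCs. The windows run from 250 bases before to 50 bases after the RefSeq start (GRCm38.p6), are printed in gene direction, and have motif matches in capitals. The Rel window (chr11:23770920-23771219, minus strand) holds 2 overlapping matches to the NF-kB consensus, 92 and 91 bases before the start, and 5 GC boxes (GGGCGG on either strand). The Slc24a5 window (chr2:125067877-125068176, plus strand) holds a match to TGANTCA, taken here as the AP-1 motif, 9 bases before the start. N stands for any base, and the match reads TGATTCA. The window also holds a GATA motif (AGATAA) 155 bases before the start. The Clca3a1 window (chr3:144760928-144761227, minus strand) holds 1 GC box 168 bases before the start. Over 32851 RefSeq promoters of this length and on both strands, 8.46% held the NF-kB consensus, 7.81% the AP-1 motif, 35.7% a GC box, 11.2% the GATA motif and 1.79% the cyclic AMP element TGACGTCA. The window of Gm14391, whose rise was also called in WT HSCs, held no match to any of these motifs and is not shown. A match describes letters in the window and not a bound site.
Rel: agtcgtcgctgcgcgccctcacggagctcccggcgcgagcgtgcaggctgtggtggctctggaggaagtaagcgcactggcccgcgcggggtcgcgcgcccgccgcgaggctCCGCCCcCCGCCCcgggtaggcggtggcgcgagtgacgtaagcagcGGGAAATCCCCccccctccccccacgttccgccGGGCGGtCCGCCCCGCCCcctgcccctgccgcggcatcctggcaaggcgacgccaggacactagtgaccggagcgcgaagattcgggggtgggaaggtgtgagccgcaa
Clca3a1: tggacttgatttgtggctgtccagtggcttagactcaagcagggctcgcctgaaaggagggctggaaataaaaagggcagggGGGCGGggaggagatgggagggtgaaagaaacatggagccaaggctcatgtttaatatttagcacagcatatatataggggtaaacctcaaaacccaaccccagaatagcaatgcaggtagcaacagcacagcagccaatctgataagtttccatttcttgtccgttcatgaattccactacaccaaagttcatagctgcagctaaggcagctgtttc
Slc24a5: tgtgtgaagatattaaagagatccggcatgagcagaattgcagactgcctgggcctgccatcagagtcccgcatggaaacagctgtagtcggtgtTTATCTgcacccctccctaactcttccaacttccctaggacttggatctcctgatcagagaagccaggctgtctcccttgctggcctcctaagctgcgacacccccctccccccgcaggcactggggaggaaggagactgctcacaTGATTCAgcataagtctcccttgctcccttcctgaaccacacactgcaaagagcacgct

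Beyond the called genes, those with the smallest p in each direction were taken by rule, and all of them had adjusted p over 0.05. On the lower side stood Enpp5, a member of the phosphodiesterase family, with 7329, 5869.6, 8424 and 8461 normalized counts in KO HSCs at 1 year and 4057, 4329 and 4504 at 2 months, against 10781, 11739, 13015, 11414 and 12483 in WT HSCs at 1 year and 4365, 4337, 3366 and 3807 at 2 months. It rose in both genotypes, by 0.79 in KO and by 1.59 in WT on the log2 scale (adjusted p = 0.000220 and 1.34e-11), and the difference was -0.79 ± 0.16 (SE, adjusted p = 0.0528). At 1 year every KO library lay below every WT library, and KO minus WT was -0.67 (adjusted p = 0.000309). Tdrd9, a helicase of the germline small RNA pathway, had 227, 109.5, 101 and 152 in KO HSCs at 1 year and 30.0 to 81.9 at 2 months, against 633, 929, 768, 589 and 591 in WT HSCs at 1 year and 34.4 to 114 at 2 months. Its rise was called in WT (3.72, adjusted p = 5.61e-09) and was 1.27 in KO (adjusted p = 0.0779), a difference of -2.45 ± 0.51 (adjusted p = 0.0784). It had 406 to 753 in KO and 770.2 to 1426 in WT at 2 years.

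The other genes of this side by the rule included the adhesion receptor Adgrl4, the nuclear receptor Rorb, the signalling adaptor Skap1 and the lysophosphatidic acid receptor Lpar6. Their rises in WT HSCs were called (1.07 for Adgrl4, 3.98 for Rorb, 2.10 for Skap1 and 0.76 for Lpar6, with adjusted p of 0.000239 or less). In KO HSCs the changes were 0.41, 1.38, 0.54 and -0.09 in the same order, of which that of Adgrl4 was called (adjusted p = 0.0346). The zinc finger genes Zbtb43 and Zkscan3 had differences of -0.996 (adjusted p = 0.119) and -0.58 (adjusted p = 0.127), and Fam124b, a low transcript, -4.93 (adjusted p = 0.126).

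On the higher side, Hspa5, the main chaperone of the endoplasmic reticulum, had 40897, 58656, 31513 and 24550 normalized counts in KO HSCs at 1 year and 21406, 17053 and 31556 at 2 months, against 12721, 16788, 17872, 19833 and 15366 in WT HSCs at 1 year and 24955, 21116, 28371 and 21900 at 2 months. The genotypes overlapped at 2 months and did not at 1 year, where KO was higher by 1.18 (adjusted p = 0.000464). The difference of age changes was 1.26 ± 0.28 (SE, adjusted p = 0.113), and at 2 years KO was higher by 0.92 (adjusted p = 0.00756). Hist1h1c, a linker histone, had 1786 to 2988 in KO and 700.3 to 1187 in WT at 1 year, and 810.5 to 1957 in KO and 1770.1 to 2187 in WT at 2 months (difference of age changes 1.96, adjusted p = 0.0882). Spi1, which encodes the myeloid and lymphoid factor PU.1, fell by 0.73 in WT HSCs (adjusted p = 3.43e-05) and changed by -0.02 in KO (adjusted p = 0.974), a difference of 0.71 (adjusted p = 0.127). Its counts were 2829, 3004, 3051 and 2787 in KO at 1 year and 3370.5, 2587 and 2959 at 2 months, against 2164, 2212, 2540.2, 2736 and 1872 in WT at 1 year and 3211, 4322, 3863 and 3840 at 2 months. Every KO library was above every WT library at 1 year, the genotypes overlapped at 2 months, and at 2 years the order was turned round, with 2072 to 2256 in KO and 2275 to 2637 in WT (KO minus WT -0.23, adjusted p = 0.395).

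Among the others, Zrsr2 (a splicing factor) differed by 1.08 (adjusted p = 0.0882), Upf2 (nonsense-mediated decay) by 1.09 (adjusted p = 0.113), Kdm6b (a histone H3 lysine demethylase) by 1.72 (adjusted p = 0.126) and Dusp10 (a MAP kinase phosphatase) by 2.001 (adjusted p = 0.127). The transcription factor genes Zbtb10 and Etv3 differed by 2.16 (adjusted p = 0.130) and 1.18 (adjusted p = 0.134). Dgat2, an enzyme of triglyceride synthesis, and Tespa1, a lymphocyte signalling protein, fell by 2.44 and fell by 3.11 in WT HSCs (adjusted p = 0.00234 and 0.00495). Their differences were 3.30 (adjusted p = 0.134) and 4.57 (adjusted p = 0.134).

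**Figure D2:**
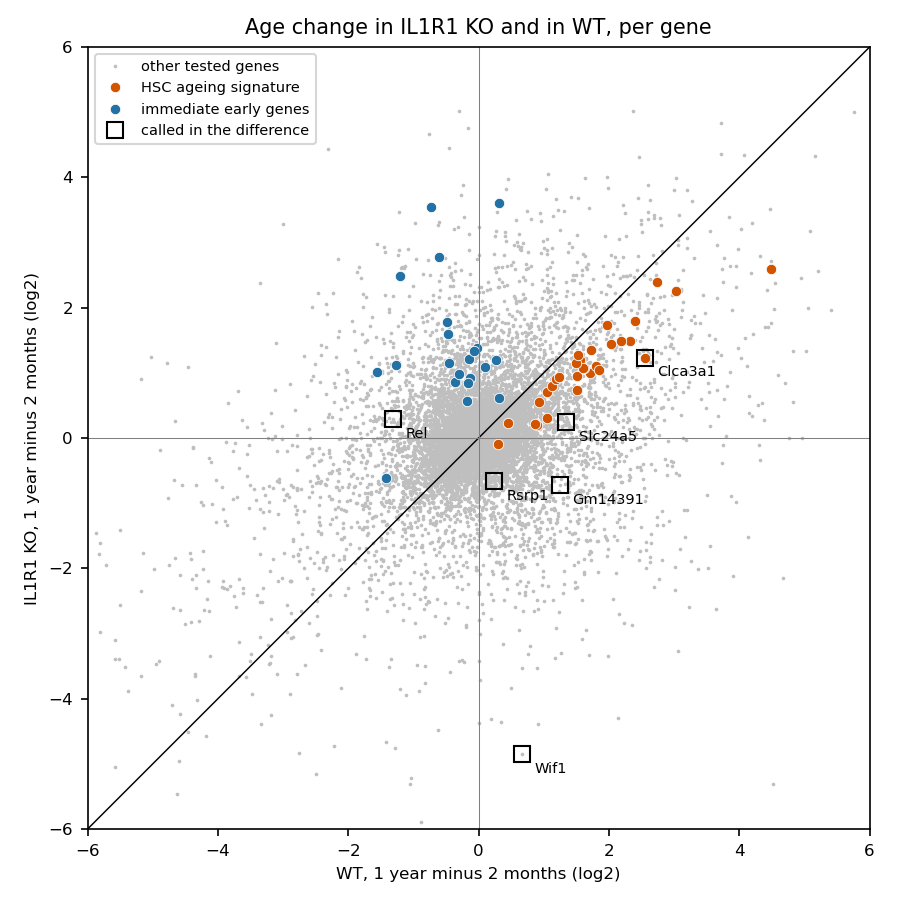
Change from 2 months to 1 year on the log2 scale in KO HSCs (vertical axis) and in WT HSCs (horizontal axis), 1 point per tested gene, with the diagonal of equal change and the called genes named. The 2 axes end at 6, which leaves 14 genes outside; Clca3a1 lies below the diagonal (1.23 in KO, 2.56 in WT) and Rel above it (0.29 in KO, -1.31 in WT).

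A list of 30 transcripts known to rise in ageing mouse HSCs was lower in the difference throughout: all 30 members had a value below 0, with a median of -0.55 against -0.018 over all genes. Of the 30, 17 were lower at an unadjusted p under 0.05 and 0 higher, and Clca3a1 alone was called. Over all genes, 5.27% were lower and 4.87% higher at that p, and 8157 lay above 0 and 8798 below. The counts of each list below are to be read beside these shares. The change to 1 year was called higher for 24 members in KO HSCs (median 1.07) and for 30 in WT HSCs (median 1.58), beside 1.39% of all genes in KO and 6.12% in WT. The change in KO as a percentage of that in WT had a median of 66.5% over the members, with a range of -28.5% (Cd9) to 87.9%. The mean log2 level of the list was 11.40, 11.32, 11.39 and 11.38 in the KO libraries at 1 year and 10.06, 10.21 and 10.53 at 2 months, against 11.86, 11.88, 11.998, 11.91 and 12.05 in WT at 1 year and 10.28, 10.29, 10.13 and 10.30 at 2 months. All 1-year KO libraries were thus below all 1-year WT libraries on this mean, and at 2 months the genotypes overlapped. The list was drawn up knowing that these genes rise with age here, so its direction within each genotype is not independent evidence. The difference and the comparison at 1 year use the same WT libraries. A choice by the rise in those libraries can itself push values below 0 and KO below WT. The counts on the difference and at 1 year are therefore a description and support nothing.

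By member, 22 of the 30 had every KO library below every WT library at 1 year, against 3.33% of all genes, and 0 had every KO library above (2.91% of all genes). At 2 months it was 0 of 30 below and 0 above (3.25% and 3.81% of all genes). At 2 years it was 1 below and 2 above (2.12% and 3.66% of all genes), the list's median KO minus WT was 0.0064, and its mean level was 11.77 to 12.04 in KO and 11.66 to 11.998 in WT. The median KO minus WT was -0.51 at 1 year and 0.045 at 2 months. Array quality weights, and leaving out replicate 3 of KO at 2 months, each left 29 members below 0. Without the high-Mpo libraries at 2 months, germ-free ones included, 26 were below 0, in an alternative added after seeing the data.

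Sbspon, which encodes a secreted matrix protein, had 1283, 758, 1248 and 918 normalized counts in KO HSCs at 1 year and 86.4, 178 and 313 at 2 months, against 2313, 2867, 3880.2, 2688 and 3508 in WT HSCs at 1 year and 169, 97.4, 155 and 120.3 at 2 months. It rose in both genotypes, by 2.60 in KO and 4.49 in WT (adjusted p = 3.81e-05 and 1.56e-11), and the difference was -1.89 ± 0.46 (SE, adjusted p = 0.134). Slamf1, the CD150 antigen commonly used to sort HSCs (the labels name no sort gate), had 3638, 3748, 3885 and 3455 in KO at 1 year and 3583, 3141 and 2955 at 2 months, against 3595, 4483, 5249, 4849 and 4882 in WT at 1 year and 2528, 2411, 2008 and 3037 at 2 months. Its rise was called in WT (0.89, adjusted p = 3.80e-06), it was 0.19 in KO (adjusted p = 0.540), and the difference was -0.70 ± 0.17 (adjusted p = 0.134). A similar pattern of values was seen for Art4, an ADP-ribosyltransferase, whose rise of 0.87 was called in WT (adjusted p = 2.18e-06) beside 0.21 in KO (adjusted p = 0.450). The difference for Art4 was -0.65 (adjusted p = 0.134).

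Selp, the adhesion molecule P-selectin, rose in both genotypes: it had 10593, 8317, 11680 and 9160.4 normalized counts in KO HSCs at 1 year and 1556, 1731 and 2434 at 2 months, against 12815, 12986, 16603, 15613 and 17863 in WT HSCs at 1 year and 1968, 2038, 1973 and 3275 at 2 months. Its rise was 2.40 in KO and 2.74 in WT, and the difference of -0.34 ± 0.24 was not called (adjusted p = 0.670), although KO minus WT at 1 year was -0.61 (adjusted p = 0.0446). The chromatin-bound stress protein gene Nupr1 (KO 1.79, WT 2.41), the secreted chaperone gene Clu (KO 1.45, WT 2.04), the aldehyde dehydrogenase gene Aldh1a1 (KO 1.08, WT 1.61) and the von Willebrand factor gene Vwf (KO 0.70, WT 1.05) rose in both. Their differences were -0.61 (adjusted p = 0.419), -0.59 (adjusted p = 0.541), -0.53 (adjusted p = 0.421) and -0.35 (adjusted p = 0.627). The integrin subunit gene Itgb3, shared with platelets, rose by 0.997 in KO and 1.71 in WT, a difference of -0.71 (adjusted p = 0.194). For Itgb3, KO minus WT at 1 year was -0.81 (adjusted p = 0.000539).

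**Figure D3:**
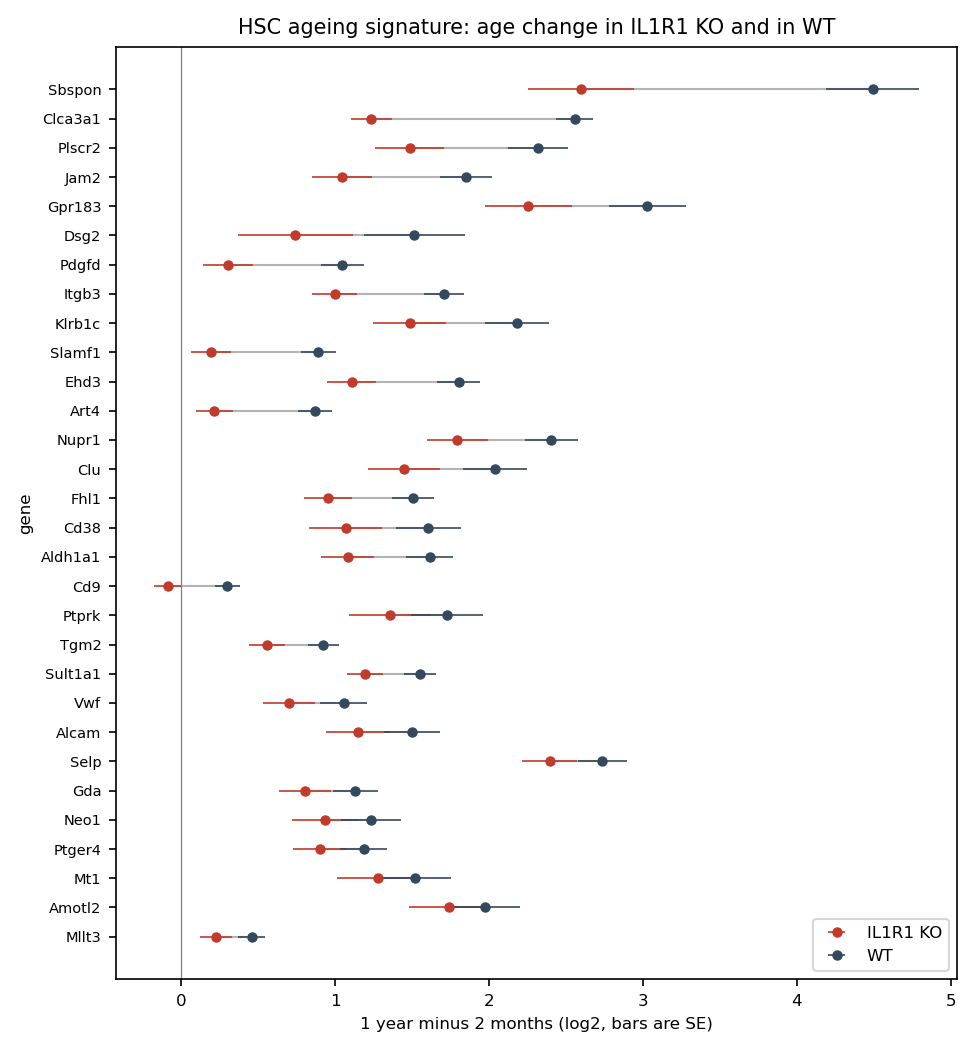
Change from 2 months to 1 year on the log2 scale (horizontal axis) for the 30 genes of the ageing list (vertical axis), in KO and WT HSCs, with the SE of the fit as bars. The KO value is the lower of the pair for all 30 genes, by 1.89 for Sbspon and by 1.32 for Clca3a1.

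Of 20 megakaryocyte and platelet genes, 19 had a difference below 0 (median -0.31), 0 were called, and 2 were lower and 0 higher at an unadjusted p under 0.05. Leaving out 1 library gave medians of -0.39 (without KO replicate 2 at 2 months) to -0.19 (without KO replicate 1 at 2 months), and for the HSC identity genes below of -0.17 (without WT replicate 1 at 2 months) to -0.074 (without WT replicate 2 at 2 months). The list shares Selp, Vwf and Itgb3 with the ageing list. After Itgb3, the members with the smallest p were the receptor gene Clec1b (-1.09, adjusted p = 0.405), the chemokine gene Ppbp (-1.57, adjusted p = 0.500) and the glycoprotein gene Gp1bb (-1.11, adjusted p = 0.506). Of 24 HSC identity genes, 14 were below 0 (median -0.16), with 3 lower and 1 higher at an unadjusted p under 0.05 and 0 called. Txnip, an inhibitor of thioredoxin linked to quiescence, rose by 0.56 in WT (adjusted p = 0.00667) and had -0.05 in KO (adjusted p = 0.926). Its difference was -0.61 (adjusted p = 0.270), and at 1 year KO minus WT was -0.72 (adjusted p = 0.00360). Procr, the EPCR antigen, rose by 0.68 in WT (adjusted p = 4.91e-05) and had 0.38 in KO (adjusted p = 0.0950), a difference of -0.30 (adjusted p = 0.525). Fgd5 had a difference of -0.47 (adjusted p = 0.443) and the transcription factor gene Runx1 one of 0.42 (adjusted p = 0.376).

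Immediate early genes, which are transcribed within minutes of a stimulus and also during cell handling, lay on the other side. All 22 had a difference above 0 (median 1.38), 10 were higher and 0 lower at an unadjusted p under 0.05, and 0 were called. The mean log2 level of the list was 12.996, 12.95, 12.82 and 11.73 in the KO libraries at 1 year and 10.68, 10.91 and 12.15 at 2 months, against 10.52, 11.81, 11.96, 11.97 and 9.77 in WT at 1 year and 11.81, 11.18, 12.26 and 11.19 at 2 months. Libraries of 1 group thus differed by more than 2 log2 units in WT at 1 year, and the genotypes overlapped on this mean at both ages. At 1 year KO replicate 4 (11.73) lay below WT replicates 2, 3 and 4 (11.81, 11.96 and 11.97). At 1 year 7 members and at 2 years 16 had every KO library above every WT library (2.91% and 3.66% of all genes), and at 2 months 4 had every KO library below (3.25% of all genes). Their median KO minus WT was 1.45 at 1 year, -0.31 at 2 months and 1.56 at 2 years. With KO replicate 1 of 1 year moved to 2 months, as its age field has it, the count at an unadjusted p under 0.05 was 1 of 22. Leaving out 1 library gave 5 (without KO replicate 1 at 2 months) to 16 (without KO replicate 3 at 2 months).

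Fos, a subunit of AP-1, had 181830, 211820, 166090 and 102870 normalized counts in KO HSCs at 1 year and 30874, 31365 and 105230 at 2 months, against 18674, 122960, 127500, 119380 and 9057 in WT HSCs at 1 year and 94671, 45545, 131820 and 43379 at 2 months, a difference of age changes of 2.27 ± 1.20 (SE, adjusted p = 0.542). The 2 lowest 1-year WT libraries, replicates 1 and 5, were also the lowest of the list mean. Myc, a growth factor-induced transcription factor, rose in KO HSCs by 0.56 (adjusted p = 0.0427) and changed by -0.18 in WT (adjusted p = 0.451), a difference of 0.74 (adjusted p = 0.161). It had 10293, 7433, 12567 and 6907 in KO at 1 year and 6948, 6469 and 5098 at 2 months, against 6985, 7148, 8379, 8105 and 6801 in WT at 1 year and 7898, 9118, 9300 and 7545 at 2 months. The nuclear receptor gene Nr4a3 (3.38, adjusted p = 0.313), Klf6 (2.06, adjusted p = 0.334) and Jund (1.60, adjusted p = 0.352) had larger differences with larger errors.

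Of 20 heat shock and unfolded protein response genes, 15 were above 0 (median 0.23) and 0 were called. At an unadjusted p under 0.05, 6 were higher and 0 lower (4.87% and 5.27% of all genes). After Hspa5 came Atf4, the factor of the integrated stress response (1.33, adjusted p = 0.240), the co-chaperone gene Dnajb9 (1.21, adjusted p = 0.252) and Herpud1, of the degradation pathway of the endoplasmic reticulum (0.72, adjusted p = 0.269). The mean log2 level of the list was 12.87, 13.39, 12.37 and 12.80 in KO at 1 year and 12.90, 12.80 and 13.56 at 2 months, against 11.43, 11.30, 11.77, 11.81 and 11.57 in WT at 1 year and 12.32, 12.37, 12.34 and 12.35 at 2 months. On this mean every KO library was above every WT library at both ages. By member, 9 members at 1 year and 8 at 2 months had every KO library above every WT library (2.91% and 3.81% of all genes). The median was 0.11 (without KO replicate 2 at 1 year) to 0.38 (without KO replicate 3 at 2 months) when 1 library was left out. With the mean level of immediate early genes as a covariate it was 0.091, and 1 member in place of 6 was higher at an unadjusted p under 0.05. The immediate early list itself had a median difference of age changes of 1.38. This covariate thus also removes differences between the genotypes that vary with it, and whether the lists are linked was not tested.

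**Figure D4:**
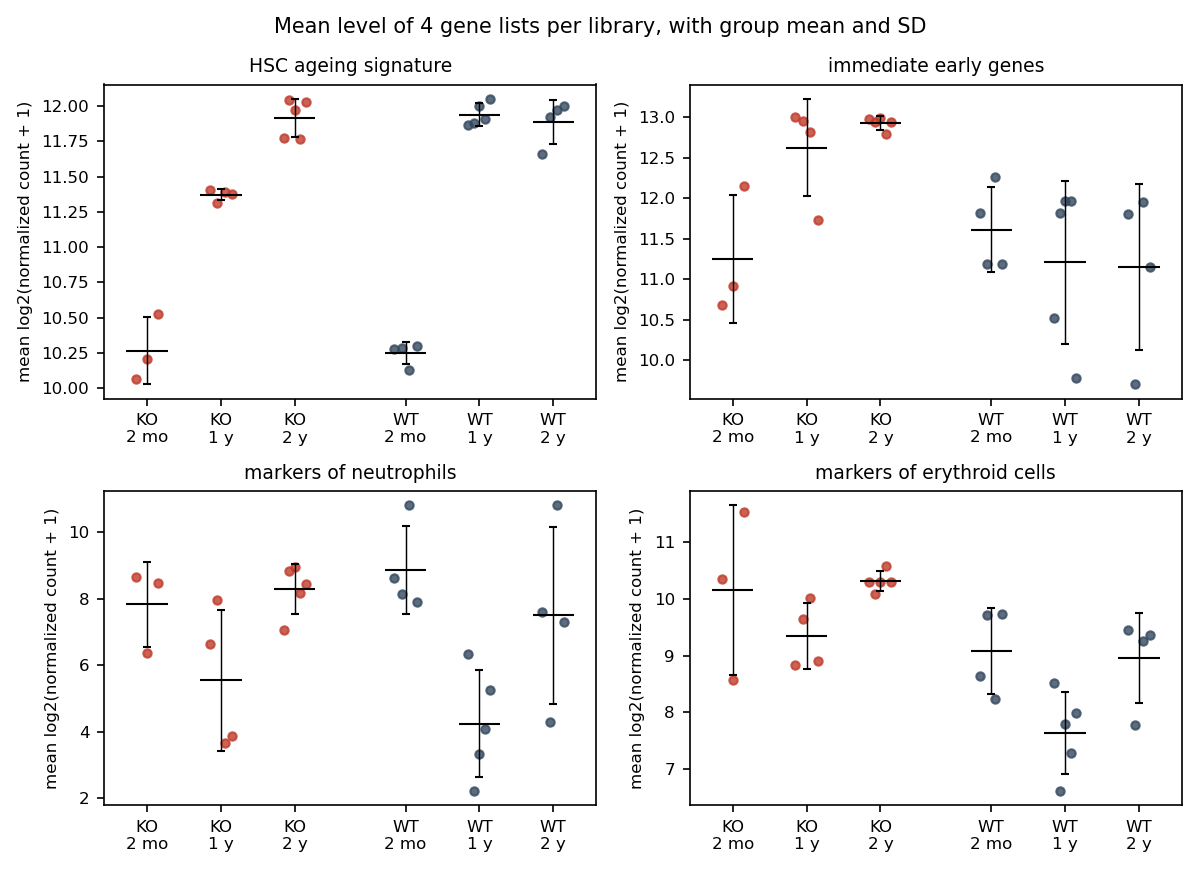
Mean log2(normalized count + 1) of the members (vertical axis) of 4 lists in each library, for KO and then WT HSCs at 2 months, 1 year and 2 years. For the ageing list the 1-year KO libraries (11.32 to 11.40) lie below the 1-year WT libraries (11.86 to 12.05), while the immediate early, neutrophil and erythroid lists vary between libraries of 1 group.

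No gene of the IL-1 pathway list was called. Of 27 IL-1 signalling genes (cytokines, receptors, adaptors and kinases of the IL-1 family), 13 were above 0 and 14 below, with a median of -0.023 against -0.018 over all genes. At an unadjusted p under 0.05, 1 was higher and 0 lower (4.87% and 5.27% of all genes). The higher gene was Il1rl1, the receptor of IL-33, which is also carried by mast cells. Il1rl1 had 36.1, 55.8, 59.5 and 11.5 normalized counts in KO HSCs at 1 year and 58.7, 11.8 and 71.6 at 2 months, against 14.6, 2.71, 3.16, 2.42 and 0.556 in WT HSCs at 1 year and 53.3, 122, 35.6 and 20.9 at 2 months (difference 3.42 ± 1.04, adjusted p = 0.240). The kinase regulators Ikbkg and Tab2 and the inhibitory receptor Sigirr had -0.24 (adjusted p = 0.608), 0.33 (adjusted p = 0.624) and -0.21 (adjusted p = 0.652).

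Of 24 NF-kB targets, 17 were above 0 (median 0.35), 4 were higher and 0 lower at an unadjusted p under 0.05, and 0 were called. Ccl4, a chemokine, had 731, 869.8, 759 and 715 normalized counts in KO HSCs at 1 year and 349, 393 and 684 at 2 months, against 464, 439, 268, 464 and 261 in WT HSCs at 1 year and 590.4, 709.8, 658 and 687 at 2 months. At 1 year every KO library was above every WT library, and KO was higher by 1.06 (adjusted p = 0.0283). It fell by 0.85 in WT (adjusted p = 0.0310) and changed by 0.75 in KO (adjusted p = 0.205), with a difference of 1.60 ± 0.39 (adjusted p = 0.134). The related chemokine gene Ccl3 differed by 2.27 (adjusted p = 0.322), Ier3 by 1.09 (adjusted p = 0.421) and the prostaglandin synthase gene Ptgs2 by 1.53 (adjusted p = 0.487). The list shares Junb with the immediate early genes and Il1b with the IL-1 list, and Rel is on none of them. The other subunits of NF-kB, named as relatives of Rel and outside the naming rule, had differences of -0.08 for Nfkb1, 0.01 for Nfkb2, 0.20 for Rela and 0.32 for Relb, none of them called (adjusted p of 0.927, 0.996, 0.713 and 0.740 in this order).

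No lineage priming gene was called in the difference of age changes. Of 19 myeloid priming genes, 15 were above 0 (median 0.40), with 2 higher and 0 lower at an unadjusted p under 0.05. With 1 library left out the median was 0.0058 (without WT replicate 2 at 2 months) to 1.04 (without WT replicate 1 at 2 months). The genes past that p were Spi1 and Csf2ra, a receptor chain for the growth factor GM-CSF (0.90, adjusted p = 0.148). Of 20 lymphoid priming genes, 13 were above 0 (median 0.16), with 5 higher and 1 lower, and the sign of the median changed with 1 library left out, -0.065 (without WT replicate 4 at 2 months) to 0.51 (without KO replicate 3 at 2 months). Flt3, the cytokine receptor of multipotent progenitors, fell by 1.46 in WT (adjusted p = 0.00483) and had -0.24 in KO (adjusted p = 0.849), a difference of 1.22 (adjusted p = 0.405). Notch1, the receptor of T cell fate, rose by 0.98 in KO (adjusted p = 0.0459) and had -0.07 in WT (difference 1.05, adjusted p = 0.270), while Blnk and Ebf1, of B cell development, had 2.63 (adjusted p = 0.241) and -3.90 (adjusted p = 0.392).

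Of 13 neutrophil markers, 12 were above 0 (median 2.60), 1 was higher at an unadjusted p under 0.05 and 0 were called. With 1 library left out the median was 0.997 (without KO replicate 2 at 1 year) to 3.06 (without WT replicate 1 at 2 months). It was 0.060 with both covariates (the mean levels of neutrophil markers and of immediate early genes). These covariates include the list's own level, which takes the median out by construction. Without the high-Mpo libraries at 2 months the median was 4.34. Their mean log2 level was 6.64, 7.97, 3.66 and 3.88 in KO at 1 year and 8.67, 6.37 and 8.49 at 2 months, against 6.33, 2.22, 3.32, 4.07 and 5.27 in WT at 1 year and 8.63, 8.13, 10.81 and 7.90 at 2 months, so that libraries of 1 group differed widely. Mpo had 1795, 12930, 1215 and 632 normalized counts in KO at 1 year and 29251, 3075 and 23626 at 2 months, against 2045, 20.5, 588, 1832 and 35.3 in WT at 1 year and 392, 73276, 1159 and 60867 at 2 months. Epx, an eosinophil granule enzyme, was at 0 to 5.03 in KO and 0 to 3.77 in WT at 1 year, and at 0 to 3.55 in KO and 0.712, 502, 165 and 490.1 in WT at 2 months. The part of these cells in the differences of myeloid genes was not tested. The fit without the high-Mpo libraries leaves out KO replicates 1 and 3, WT replicates 2 and 4 and germ-free replicates 1 and 3 at 2 months. It keeps 1 KO library of that age.

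Of 13 erythroid genes, 8 were above 0 (median 0.47), with 2 higher and 2 lower at an unadjusted p under 0.05 and 0 called. The sign of this median changed with 1 library left out, -0.42 (without KO replicate 2 at 2 months) to 1.63 (without KO replicate 3 at 2 months). Their mean log2 level was 8.83 to 10.02 in KO and 6.62 to 8.52 in WT at 1 year, and 8.56 to 11.53 in KO and 8.23 to 9.73 in WT at 2 months. Car1, a carbonic anhydrase of erythroid and myeloid progenitors, had 3161, 3302, 1667 and 1732 normalized counts in KO at 1 year and 3738, 1924 and 8301 at 2 months, against 1337, 151, 315, 257 and 267 in WT at 1 year and 4754, 2549.6, 5804 and 1414 at 2 months. It fell by 3.22 in WT (adjusted p = 0.000487), and KO was higher at 1 year by 2.79 (adjusted p = 0.0105), while the difference of age changes was 2.48 ± 0.86 (adjusted p = 0.299). Ermap, an erythroid membrane protein, had 551, 1204, 608 and 297 in KO at 1 year and 1129.5, 183 and 1869.8 at 2 months, against 271, 3.82, 25.6, 112 and 37.3 in WT at 1 year and 627, 774, 668 and 1007 at 2 months (difference 3.82, adjusted p = 0.240). The carbonic anhydrase gene Car2 and the haem synthesis gene Alas2 had -0.33 (adjusted p = 0.316) and -1.96 (adjusted p = 0.491).

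Of 14 B and plasma cell markers 11 were below 0 (median -1.19), of 12 T and NK cell markers 5 (median 0.27), of 13 monocyte and macrophage markers 2 (median 0.55), of 7 mast cell, basophil and eosinophil markers 3 (median 1.33) and of 8 endothelial and stromal markers 5 (median -0.20). None of these 5 lists held a called gene (limma). At an unadjusted p under 0.05 they held 1 higher and 4 lower members (4.87% and 5.27% of all genes). With 1 library left out, the medians were -1.65 to -0.62 for the B cell list, -0.17 to 0.33 for T and NK cells, 0.16 to 1.52 for monocytes, 0.43 to 1.61 for mast cells and -0.26 to -0.058 for the endothelial list. Their mean log2 levels at 1 year were 2.65 to 4.65 in KO and 3.79 to 5.61 in WT for the B cell list, and 3.05 to 5.03 in KO and 3.39 to 5.16 in WT for the monocyte list. At 2 months they were 3.71 to 4.47 in KO and 3.09 to 4.35 in WT for the B cell list, and 4.25 to 7.28 in KO and 5.59 to 9.05 in WT for the monocyte list.

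Interferon, cell cycle and respiratory genes showed no called difference of age changes. Of 25 genes of the interferon gamma response and antigen presentation, 20 were below 0 (median -0.10), with 3 lower and 0 higher at an unadjusted p under 0.05. Their median KO minus WT was 0.20 at 2 months and 0.067 at 1 year. At 2 months 5 members had every KO library above every WT library (3.81% of all genes). At 1 year 0 had every KO library below (3.33% of all genes). Their rise with age was called for 3 members in KO and 10 in WT, beside 1.39% of all genes in KO and 6.12% in WT. The GTPase gene Irgm2 rose by 0.83 in WT (adjusted p = 0.000297) and had 0.22 in KO (adjusted p = 0.596), a difference of -0.61 (adjusted p = 0.322), and the peptide loading gene Tapbp differed by -0.42 (adjusted p = 0.369). The class II genes Cd74 and H2-Eb1 rose in both genotypes: Cd74 by 1.18 in KO and 1.25 in WT, and H2-Eb1 by 1.30 in KO and 1.60 in WT, with differences of -0.07 ± 0.38 and -0.30 ± 0.45 (SE, adjusted p = 0.968 and 0.866). Of 26 type I interferon genes, 14 were above 0 (median 0.029), with 1 higher and 0 lower.

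Of 36 cell cycle genes, 15 were above 0 and 21 below (median -0.047). At an unadjusted p under 0.05, 1 was higher and 0 lower (4.87% and 5.27% of all genes). Their fall with age was called for 7 members in KO and 17 in WT, beside 0.613% of all genes in KO and 4.61% in WT. Mki67, the proliferation marker, fell by 0.80 in KO and 1.01 in WT (adjusted p = 0.0132 and 5.38e-05), a difference of 0.21 ± 0.23 (adjusted p = 0.809). Of 50 oxidative phosphorylation genes, 29 were above 0 (median 0.023), with 5 higher and 1 lower. The fall was called for 0 members in KO and 15 in WT, beside the same 0.613% of all genes in KO and 4.61% in WT. Among them Cox7c, of complex IV, fell by 0.60 in WT (adjusted p = 0.00116) and had -0.06 in KO (adjusted p = 0.893), a difference of 0.53 (adjusted p = 0.274). When 1 library was left out, the medians that lay near 0 changed sign: -0.10 to 0.012 for the IL-1 list, -0.046 to 0.10 for the type I interferon list, -0.19 to 0.10 for the cell cycle list and -0.022 to 0.092 for the oxidative phosphorylation list. That of the interferon gamma list was -0.22 (without WT replicate 2 at 1 year) to -0.029 (without KO replicate 3 at 2 months). Each such gap between the genotypes in the number of calls is not a test of a difference.

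**Figure D5:**
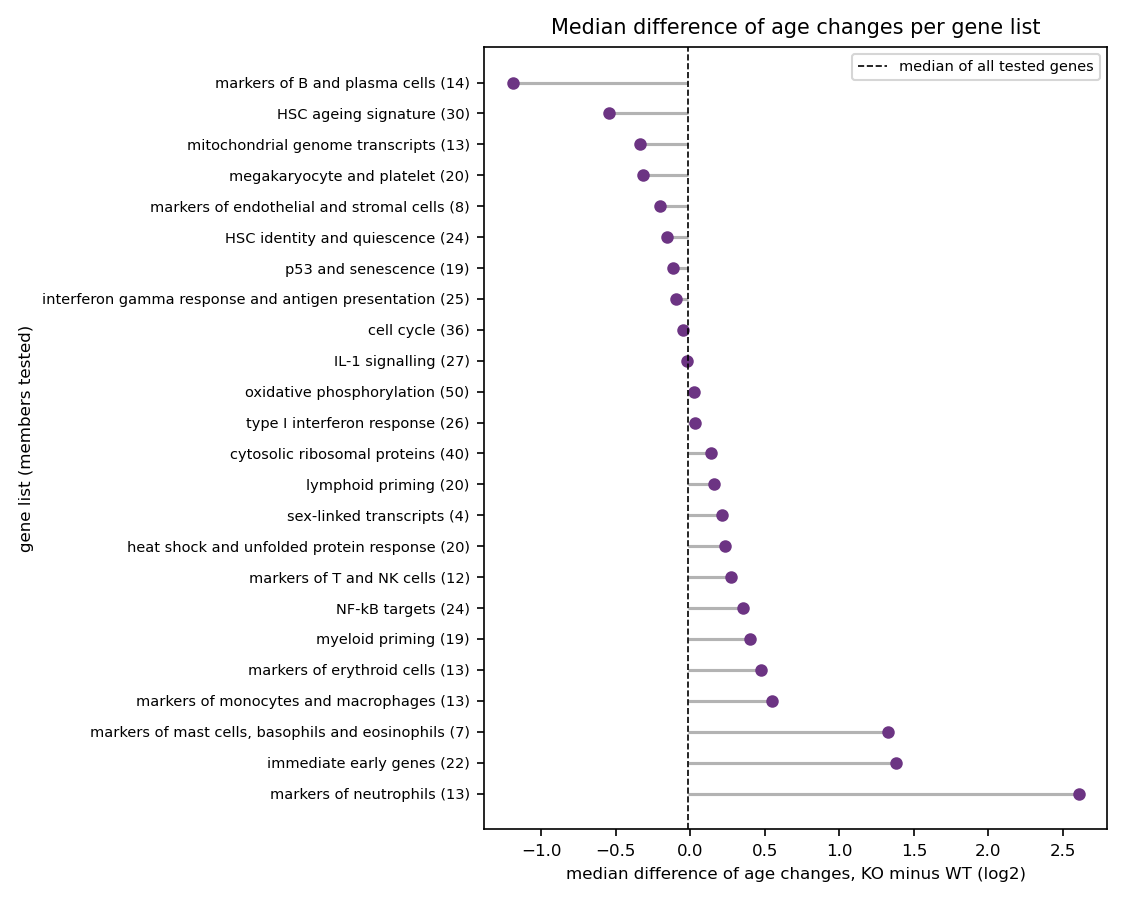
Median difference of age changes, KO minus WT, on the log2 scale (horizontal axis) for each gene list (vertical axis), with the median of all tested genes as a dashed line. The neutrophil list (2.60; 0.997 to 3.06 with 1 library left out) and the immediate early genes (1.38) lie to the right of the line, and the ageing list (-0.55) and B and plasma cell markers (-1.19) to the left.

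Libraries of germ-free mice, outside the difference, gave a further set of age genes, chosen after the values were seen and described without a test. Between 2 months (3 libraries) and 1 year (2 libraries), 356 genes were called in germ-free HSCs (2.10%), 218 higher and 138 lower at 1 year. Of the 218, 22 are in the ageing list. Over the 218 genes the median change to 1 year was 0.68 in KO and 1.18 in WT, the median difference of age changes was -0.37, and 184 of 218 were below 0. At 1 year 73 of them had every KO library below every WT library and 4 every KO library above (3.33% and 2.91% of all genes), and at 2 years 4 below and 17 above (2.12% and 3.66% of all genes). Over the 138 genes the median change was -0.269 in KO and -0.266 in WT, and the median difference of age changes was 0.049.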

How the data were processed

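The deposited table holds 1 column per library with normalized counts for 35727 genes. They come, per the submitters' processing notes, from Salmon 1.2.0.0, cutadapt 2.10, DESeq2 1.26.0 and FastQC 0.11.9 (builds GRCm38 and mm10). These normalized counts are a signal whose size the authors scaled between libraries before they deposited them, and no source here tells how transcripts became gene values. Within the 16 libraries 11.1 to 17.8% of low values were whole multiples (within 0.001) of the value taken as 1 read, so reads were not recovered and no count model was run. Depth was estimated from the most frequent value above 0, taken as 1 read. Smart-seq2 libraries of sorted cells were read from 1 end, per the labels' protocols, and the method does not mark strand, so reads of overlapping and antisense genes cannot be told apart.

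Genes that reached 10 normalized counts in 3 or more of 30 libraries (16958, of which 15270 are protein coding) were tested with limma 3.58.1 on R 4.3.3, on log2(value + 1), with a mean per group over all 30 libraries, the trend and robust settings, and a two-sided moderated test of (KO 1 year - KO 2 months) - (WT 1 year - WT 2 months). Log2 differences on this scale understate the change of low genes. P-values were adjusted by Benjamini-Hochberg over all tested genes with a threshold of 0.05. The fit was tested on simulated data. The design text speaks of 30 mice, but the labels tie no library to a mouse, so the p-values reflect the spread among these libraries alone, which may be technical. The highest correlation between 2 libraries was 0.968, and 0 pairs were identical.

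The comparison, the 24 gene lists and the tests were chosen with earlier results of these data known. Genes named were Il1r1, up to 12 per direction by call and then by smallest p with a group mean of at least 50 (predicted genes and pseudogenes left out), the 4 members of each list with the smallest p, and a fixed set of ageing and control genes. Lists are described by counts and medians, without a set test. The 34 alternatives covered pseudocounts, filters, scaling, weights, a replicate block, covariates, the placement of the library with disagreeing age labels, and leaving out single libraries. 2 of them were chosen after seeing the data. They are the fit without the high-Mpo libraries at 2 months (Mpo of at least 10000), germ-free ones included, and the fit with neutrophil and immediate early covariates together. Positions are from GENCODE on GRCm38, and promoters from RefSeq on GRCm38.p6.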

Additional observations from a re-analysis of the deposited data

Results flagged for a closer look

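The 6 called genes are differences between the genotypes in the effect of age. The difference of age changes, KO minus WT on the log2 scale, was -1.32 for Clca3a1, -1.10 for Slc24a5, 1.60 for Rel, -0.90 for Rsrp1 and -1.97 for Gm14391. For Wif1 the fitted value was -5.52, which depends on the pseudocount (-6.67 to -2.16 over the alternatives) and is no measure of a fold. Their tests are in the results above.

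In 12 of 127 groups of 4 or 5 libraries, 1 library stood apart from the others by Dixon's 95% limits, which chance gives for about 1 group in 20. The 3 KO libraries at 2 months were too few for this screen and were not examined by it. In KO at 1 year, replicate 1 had 497 normalized counts of Dusp10 (others 323 to 332) and 7.56 of Lin28b (others 0 to 0.537). Replicate 2 of that group had 12930 of Mpo (others 632 to 1795), 5389 of Nupr1 (others 4504 to 4543) and 4843 of Vwf (others 7139 to 7585). Replicate 4 of that group had a mean log2 level of 11.73 over the immediate early genes (others 12.82 or more). In WT at 1 year, replicate 1 had 1337 normalized counts of Car1 (others 151 to 315), and replicate 3 had 9.08 of Wif1 (others 0). In WT at 2 months, replicate 2 had 169.8 of Tespa1 (others 106 to 112) and 114 of Tdrd9 (others 34.4 to 43.3), and replicate 4 had 3275 of Selp (others 1968 to 2038). Replicate 3 of that group had a mean log2 level of 10.13 over the ageing list (others 10.28 to 10.30). KO replicate 2 at 1 year carried 3 of the 12.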

How the results depend on the processing

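Of 34 alternatives, 23 left the number of called genes within 1.5 times the 6 reported. It was 10 with array quality weights, 1 with the immediate early covariate, 1 with that and the neutrophil covariate, and 38 without the high-Mpo libraries at 2 months, a fit in which the lone KO library of that age is assumed to vary like the other groups. Among the counts that stayed close, the fit on the 16 libraries alone called 6 genes that held 3 of the 6 (Slc24a5, Clca3a1 and Gm14391) and not Rel, Rsrp1 and Wif1. With KO replicate 1 of 1 year moved to 2 months, 5 were called, which held 2 of the 6 (Clca3a1 and Slc24a5). The list medians of erythroid, T and NK cell, lymphoid, mitochondrial, type I interferon, IL-1, cell cycle and oxidative phosphorylation genes changed sign with 1 library left out. Leaving out 1 library gave 1 to 31: 1 without KO replicate 2 or WT replicate 3 at 1 year, 3 without WT replicate 4 at 2 months, 12 without WT replicate 2, 13 without KO replicate 3 and 15 without KO replicate 1 at 2 months, and 31 without KO replicate 4 at 1 year. Clca3a1 was called in 34 of 34 alternatives (-1.65 to -1.06), Rel in 27, Slc24a5 in 26, Gm14391 in 25, Rsrp1 in 24 and Wif1 in 15 of 33. The median of the ageing list was -0.76 with the library of disagreeing age labels at 2 months, and -0.63 to -0.43 when 1 library was left out. That of the immediate early genes was -0.071 with their own level as covariate, which takes it out by construction, and -0.088 with both covariates. The difference changed sign for Il1r1 (0.00765 with array weights, 0.0648 with the neutrophil covariate, 0.0864 without the high-Mpo libraries), Aldh1a1 (0.00574 without these), Cd74 (0.00666 with array weights, 0.00608 with the block, 0.0557 without the high-Mpo libraries, -0.54 to 0.34 with 1 library left out), H2-Eb1 (0.28 without the high-Mpo libraries, -0.82 to 0.27 with 1 library left out), Mki67 (-0.10 with both covariates) and Fos (-0.36 with the immediate early covariate, -0.47 with both). The cause was not tested. With the replicate number as a block, 5 genes were called, 4 of them among the 6. No pairing by number was seen: deviations of 21 pairs with the same number correlated at -0.0999 to 0.0616, and 0 exceeded 0.1. Those of 74 pairs with different numbers correlated at -0.121 to 0.144, and 1 exceeded 0.1. A batch shared by number in a part of the genes could be missed in this way. Depth limits low genes such as Wif1, Fam124b and Il1rl1.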

Other observations

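Transcripts of the mitochondrial genome were below 0 in 12 of 13 cases in the difference of age changes (median -0.34; -0.60 (without KO replicate 2 at 2 months) to 0.0054 (without KO replicate 3 at 2 months) when 1 library was left out), with 0 past an unadjusted p of 0.05 and 0 called (limma). The mean log2 level of the list was 15.13, 14.75 and 16.05 in KO at 2 months and 14.54 to 14.77 at 1 year. In WT it was 14.47 to 15.18 at 2 months and 14.16 to 15.05 at 1 year. In KO HSCs mt-Nd1, a subunit of complex I, fell by 1.10 on the log2 scale (adjusted p = 0.0190), and in WT HSCs it changed by -0.44 (adjusted p = 0.230). The difference of -0.67 was not called (adjusted p = 0.511). Of 40 cytosolic ribosomal protein genes, 31 were above 0 (median 0.14; 0.085 to 0.19 when 1 library was left out), 2 were higher and 0 lower at an unadjusted p under 0.05, and 0 were called. Rpl15 fell by 0.34 in WT (adjusted p = 0.00730) and had 0.01 in KO (adjusted p = 0.982), a difference of 0.35 (adjusted p = 0.312).

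Of 19 p53 and senescence genes, 12 were below 0 (median -0.12; -0.20 to -0.064 when 1 library was left out), 1 was higher and 2 lower at an unadjusted p under 0.05, and 0 were called. Sesn1, a stress-induced sestrin, had 4713, 4294, 5869.7 and 5719 normalized counts in KO HSCs at 1 year and 5214, 4795 and 4949.8 at 2 months, against 6828, 6598, 7671, 7042 and 6665 in WT HSCs at 1 year and 5264, 4710.2, 4492 and 5195 at 2 months. It rose by 0.50 in WT (adjusted p = 0.000837) and had 0.03 in KO (adjusted p = 0.936). The difference of -0.47 was not called (adjusted p = 0.241), and KO minus WT at 1 year was -0.45 (adjusted p = 0.0137). Lin28b, a fetal RNA-binding protein, fell by 5.16 in KO (adjusted p = 0.00428) and had -2.50 in WT (adjusted p = 0.0660). The difference of these age changes was not called (-3.53 to -2.21 when 1 library was left out). Lin28b had 7.56, 0, 0 and 0.537 normalized counts in KO at 1 year and 91.7, 46 and 71.3 at 2 months. In WT it had 34.1, 38.9, 38.8, 0.458 and 12.8 at 1 year and 104, 102, 34.6 and 181 at 2 months. The 4 tested sex-linked transcripts, all Y-linked, were present in each of the 16 libraries and had differences of 0.06 to 0.47, which were not called.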
